A study of Mus musculus with 57 samples.

Results

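Sox1+FOXA2+ progeny at D6 were compared with Sox1+FOXA2+ cells sorted at D6, across all genes. The 6 libraries of this comparison, 3 progeny and 3 sorted, were chosen by their titles from the 57 bulk RNA-seq libraries of the series, which hold 3 replicates of each of 19 conditions. All come from a mouse ESC line, Sox1-EGFP/FoxA2mCherry, in which EGFP replaces a Sox1 allele and mCherry is fused to FOXA2, and which is a single clone made in the 46C line, which carries SOX1-EGFP. Both groups were differentiated in 1 uM retinoic acid (RA) and were harvested at D6.

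The sorted cells stayed in N2B27 medium with RA, carried both markers at D6 and were taken by FACS at that time. The progeny carried both markers at D2, were then sorted, replated on gelatin in RA with serum as the basal medium and without LIF, and were harvested 4 days later with no sort at D6. Replating, the basal medium and the gate at harvest therefore differ together between the groups and cannot be told apart. The study calls its 3 replicates per condition biological, and the labels do not say whether they came from separate cultures, so that p-values measure the spread between these libraries. In bulk libraries, fewer cells of a type and less RNA per cell cannot be told apart either.

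SOX1 is among the earliest transcription factors of the neural plate, and FOXA2 is a forkhead factor of the definitive and extraembryonic endoderm, the node and the floor plate. RA drives ESCs out of pluripotency and toward neural and endodermal fates. Serum carries lipoproteins, growth factors and lysophospholipids. Cells supplied with cholesterol lower the genes of its synthesis, which are driven by the factor SREBP2. Serum and spreading on a rigid surface activate actin assembly, through which the factors SRF and YAP switch on cytoskeletal and matrix genes. These statements are background and no result of the libraries described here.

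Library totals of the sorted cells were 30519808, 21995880 and 48829405 counts in replicates 1 to 3, and those of the progeny were 24946933, 38668537 and 36626677. Genes with at least 1 count numbered 23286, 14458 and 24155 in sorted cells and 18379, 24211 and 24267 in progeny. Sorted replicate 2 is therefore sparse, with fewer genes than any other of the 6 libraries. Over the 5000 genes of highest level, Spearman correlations between replicates were 0.466, 0.754 and 0.553 in sorted cells, the lower values being those with replicate 2, and 0.851 to 0.911 in progeny. The median SD of log2 normalized counts over those genes was 0.567 in sorted Sox1+FOXA2+ cells and 0.275 in their progeny. In the 4 other D6 groups used below it ran from 0.237 to 0.419, so that the sorted double-positive libraries were the most variable of the 6 groups.

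The sorting markers were checked first. Foxa2 had 0 normalized counts in sorted replicate 1, 728 in replicate 2 and 76.6 in replicate 3, against 524, 889 and 728 in the progeny. A count of 0 allows up to 3 counts in that library. Sorted Sox1+FOXA2- libraries held 131, 124 and 20.3 normalized counts of Foxa2 and sorted Sox1-FOXA2+ libraries 2700, 1480 and 2580. Sorted Sox1+FOXA2+ replicates 1 and 3 thus lay within or below the range of the FOXA2- gate, against their label, and only replicate 2 lay above it. The gates read fluorescent protein and not transcript, and whether transcript and protein differ in these cells was not tested. In the progeny, Foxa2 lay above the 205 to 264 of Sox1+FOXA2- progeny and below the 2850 to 3300 of Sox1-FOXA2+ progeny.

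Sox1 cannot be checked from the counts. The gene (chr8:12395295-12400126, plus strand, GRCm38) lies inside Sox1ot and has 0 counts in all 57 libraries. The same holds for all 1287 protein-coding genes that lie wholly inside another gene, 100% of which have 0 counts in every library, against 2.71% of the 20664 others. Sox2, Tubb3 and Srf are among them, so that their 0 says nothing about the cells, and genes that overlap another gene in part are undercounted. Because sorted replicate 2 was sparse and Foxa2 in sorted replicates 1 and 3 went against their label, the numbers of calls among all genes in this comparison are also given with each of these 3 left out.

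Ecm1, Fosl2 and Msn rose and Spock1 fell in progeny, and these 4 were the genes called among 19908 tested in the 6 libraries (0.0201%, edgeR quasi-likelihood test, adjusted p under 0.05). Ecm1 encodes a secreted glycoprotein of the extracellular matrix, and Fosl2 an AP-1 subunit of the FOS family. Msn encodes moesin, which ties actin filaments to the plasma membrane, and Spock1 encodes testican, a matrix proteoglycan best known from neural tissue.

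Ecm1 (ENSMUSG00000028108.15, chr3:95734147-95739569) was at 308, 200.2 and 97.5 normalized counts in sorted replicates 1 to 3 and at 13980, 30680 and 12720 in the progeny. All 3 progeny libraries lay far above all 3 sorted ones, with a log2 fold change of 6.81 ± 0.61 (SE, n = 3 against 3, edgeR adjusted p = 0.0105). Fosl2 (ENSMUSG00000029135.10, chr5:32135801-32157842) was at 555, 461 and 1003 in sorted cells and at 8645, 8598 and 7175 in progeny. Its groups did not overlap, and the log2 fold change was 3.81 ± 0.41 (SE, edgeR adjusted p = 0.0312).

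Msn (ENSMUSG00000031207.16, chrX:96096042-96168552) was at 4168, 2703 and 3173 normalized counts in sorted cells and at 22600, 16740 and 15970 in progeny, a log2 fold change of 2.69 ± 0.32 (SE, edgeR adjusted p = 0.0365). The groups were again separate, the lowest progeny library lying far above the highest sorted one. Spock1 (ENSMUSG00000056222.15, chr13:57421195-57908332) went the other way, from 7082, 5872 and 4656 in sorted cells to 453, 585 and 304 in progeny. Its log2 fold change was -3.49 ± 0.41 (SE, edgeR adjusted p = 0.0365), with every progeny library below every sorted one.

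**Figure D1:**
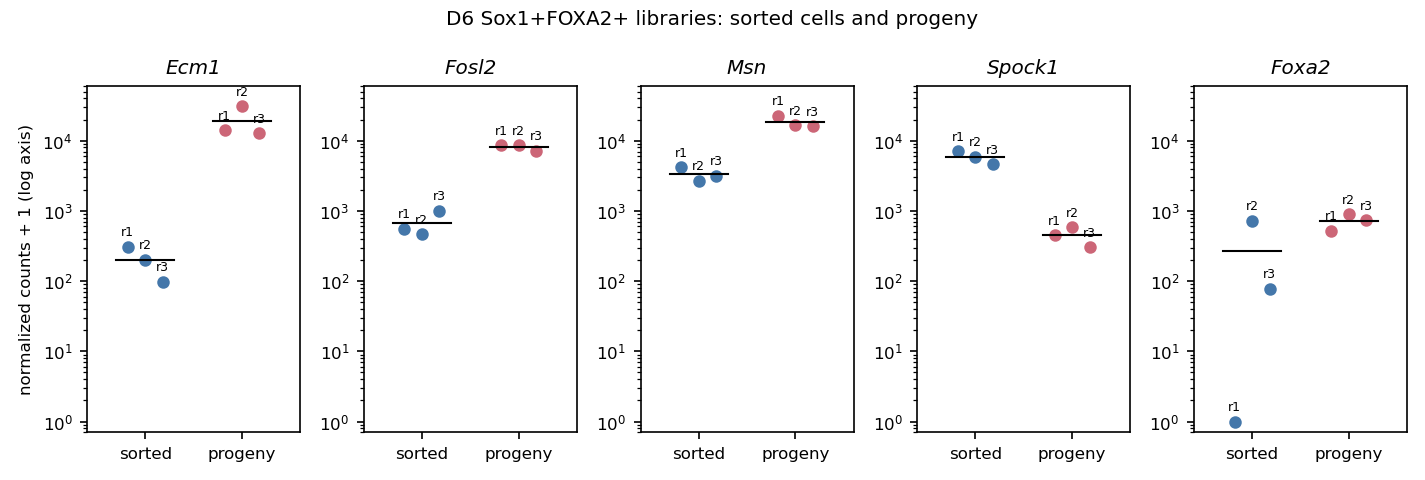
Normalized counts plus 1, on a log axis, of the 4 called genes and of Foxa2 in each of the 6 D6 Sox1+FOXA2+ libraries, with sorted cells in blue, progeny in red, replicate numbers above the points and bars at the group means. The groups are apart for Ecm1, Fosl2, Msn and Spock1, while Foxa2 runs from 0 to 728 normalized counts in sorted cells, where the point at 1 is sorted replicate 1.

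The number of calls turned on single libraries. It was 20 without sorted replicate 1, 1691 without sorted replicate 2, and 0 without sorted replicate 3 (2358 genes at an unadjusted p under 0.05). Without progeny replicate 1, 2 or 3 it was 0, 1 and 1. With all 6 libraries 2446 genes had an unadjusted p under 0.05, and DESeq2's Wald test called 1315. The 4 genes were all among the 20 and all among the 1691. Over the fits that leave out a library, the adjusted p of Ecm1 ran from 0.000868 to 0.0607, that of Fosl2 from 0.00474 to 0.267, that of Msn from 0.00474 to 0.278 and that of Spock1 from 0.00503 to 0.278. Their log2 fold changes moved less, from 6.29 to 7.18, 3.74 to 4.31, 2.56 to 2.88 and -3.74 to -3.23 in the same order.

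A second fit took 18 D6 libraries, sorted and progeny, with a mean for each of 6 groups. Beside the double-positive gate it held Sox1+FOXA2- cells and, as the remaining gate, Sox1-FOXA2+ cells. It draws its estimate of the spread from all of them, and the other groups vary less than sorted Sox1+FOXA2+ cells, so that its p-values may be too small for this comparison. It called 554 of 25515 genes between Sox1+FOXA2+ progeny and sorted cells (2.17%), of which 359 rose and 195 fell, and the 4 genes above were all among them. Protein-coding genes made up 356 of the risers and 188 of the fallers, and long noncoding genes 2 and 7. The make-up of the 25515 tested genes by class is not given here, so that these counts describe the calls only. Without sorted replicate 1 the fit called 411 genes, of which 313 were shared with the 554, without sorted replicate 2 it called 1171, of which 491 were shared, and without sorted replicate 3 it called 586, of which 387 were shared.

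Of the 1691 genes called in 5 libraries, without sorted replicate 2 and with no other gate, 471 were among the 554, all in the same direction, which is 27.9% of the first number and 85% of the second. Relative direction depends on scaling. The median log2 fold change of all genes was -0.33 in the 6 libraries and -0.63 with library totals in place of TMM factors. In the 18-library fit it was -0.43, -0.58 with edgeR's RLE factors and -0.71 with library totals. The calls then split into 265 up and 269 down, or 201 up and 365 down. In what follows, "called" without another word refers to the 18-library fit, and medians refer to the 6 libraries alone, beside -0.33 for all genes.

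The calls of single genes moved with the libraries in this fit as well. Of 220 genes followed singly, it called 77, and 38 of these kept their call with each of the 6 double-positive libraries left out in turn. Being called was a rule for choosing among the 220, so that the 77 are no share to set beside the 2.17% of all genes. The other 39 were not called without at least 1 of the 6, and losses given below for a sorted library do not list those for progeny. In the 127 fits in which these 39 lost a call, all had the sign of the full fit and 120 had at least 2/3 of its log2 fold change. The other 7 were all without sorted replicate 2, Hmgcs1, Sqle, Lss, Lin28a, Top2a and Cenpf among them. Without sorted replicates 1 to 3 the 77 were 61, 65 and 62, and without progeny replicates 1 to 3 they were 51, 49 and 47. The 29 that kept a call as higher were Actn1, Ahnak2, Cald1, Car13, Cnn2, Ecm1, Efna2, Ets1, Flna, Fosl2, Hk2, Hmox1, Krt19, Msn, Nr2f2, Nrip1, Peg10, Peg3, Plk2, Ptgs2, S100a6, Smad7, Sox9, Thbs1, Tpm1, Tpm2, Trappc4, Vcl and Vim. The 9 that kept a call as lower were Crabp1, Cyp51, Dab2, Dnmt3b, Insig1, Mapk4, Scd1, Spns3 and Spock1.

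By fitted change, genes absent from sorted cells led the increases. Of the 356 genes that were called as higher, did not overlap between the groups and had a mean of at least 100 normalized counts in progeny, the 12 with the largest fitted change were Rapgef3, Efna2, Ahnak2, Cend1, Trappc4, Ogfod2, Car13, Ptgs2, Ecm1, Dclre1b, S100a6 and Serpinb6b. The first 6 had 0 counts in all 3 sorted libraries, and a fold change of such a gene is a lower bound, taken here against 3 counts over the group. Their place ahead of genes with counts in sorted cells, such as Car13 (fitted log2 fold change 7.873), therefore holds for fitted values only. Ahnak2 was at 220, 188 and 225 normalized counts in the progeny, at least 205-fold higher. Efna2, which encodes an ephrin ligand, was at 214, 198 and 255 (at least 216-fold). Rapgef3, which encodes a cAMP-activated exchange factor for RAP1, was at 6.02, 412 and 238 (at least 213-fold), so that progeny replicate 1 was nearly as low as the sorted cells. Trappc4 had the same pattern, at 3.01, 252.5 and 258.5. The adjusted p of all 6 lay between 0.00702 and 0.0490.

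Ptgs2 encodes the inducible cyclooxygenase of prostaglandin synthesis. It was at 70.3, 0 and 83.6 normalized counts in sorted cells and at 5690, 4919 and 4771 in progeny, with a log2 fold change of 6.88 ± 1.30 (SE, edgeR adjusted p = 0.00564). S100a6, a small calcium-binding protein, was at 50.9, 0 and 59.9 and then at 1825, 2979 and 4518, a log2 fold change of 6.64 ± 1.42 (adjusted p = 0.0133). In both genes the sorted libraries were low throughout, and sorted replicate 2 had none. Car13, a carbonic anhydrase, was at 0, 0 and 4.18 in sorted cells and at 400.4, 309.5 and 349 in progeny. Dclre1b shares 58% of its exon bases with another gene and is uncertain, and Trappc4 and Rapgef3 share 18.9% and 25.2%.

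Among the 172 genes that were called as lower under the same filters, the 12 with the largest fitted change were Lefty2, Crabp1, Kcnk10, Spns3, Lgals4, Mapk4, Zfp385c, Ric3, Nsg2, Syt9, Btbd11 and Tmem256. Lefty2, a secreted inhibitor of Nodal, was at 681, 388 and 401 normalized counts in sorted cells and at 0, 1.90 and 0 in progeny (log2 fold change -9.01 ± 2.30, SE, edgeR adjusted p = 0.0384). Every sorted library held Lefty2, and 2 progeny libraries held none. Crabp1, which binds RA in the cytoplasm, was at 1232, 11630 and 487 and then at 84.3, 0 and 35.9 (log2 fold change -6.73 ± 1.37, adjusted p = 0.00990). Sorted replicate 2 stood highest for Crabp1, but the other sorted libraries also lay above all progeny.

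Ric3 encodes a chaperone of acetylcholine receptors, Nsg2 a protein of neuronal vesicles, Syt9 a synaptotagmin and Kcnk10 a potassium leak channel. Their log2 fold changes were -4.30 for Ric3, -4.07 for Nsg2, -4.04 for Syt9 and -5.11 for Kcnk10, with edgeR adjusted p between 0.0136 and 0.0444. Mapk4, an atypical MAP kinase, was at 4275, 959 and 3057 normalized counts in sorted cells and at 42.2, 98.7 and 94.3 in progeny (log2 fold change -4.85 ± 0.84, SE, adjusted p = 0.00323). Lgals4, a galectin, fell from 7291, 2150 and 713 to 154, 59.8 and 49.1. Of these 12 genes, only Crabp1, Spns3 and Mapk4 kept their call with each of the 6 libraries left out. Btbd11, Kcnk10, Lefty2, Lgals4 and Nsg2 were not called without sorted replicate 1 (adjusted p from 0.0553 to 0.172), and Nsg2 was not called without sorted replicate 3 (0.0543). Ric3, Tmem256 and Zfp385c were not called without sorted replicate 2 (0.0708 to 0.0908). Syt9 was not called without progeny replicate 1 (0.0681) or 3 (0.0732). Of the 12 genes that rose, 5 lost their call at least once. Cend1, Ogfod2, Rapgef3 and Serpinb6b were not called without sorted replicate 1 (0.0737 to 0.124), and Cend1 was not called without sorted replicate 2 (0.0538). Without sorted replicate 3 these 4 and Dclre1b were not called.

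The genes were also read by role, in 39 lists of 664 genes, each list described by its calls and its median. The members were chosen from general knowledge, with earlier results of these data known. The 6-library fit tested 557 of them and called 0 (edgeR, beside 4 called, 2446 at an unadjusted p under 0.05 and 1315 called by DESeq2 among all genes). The 18-library fit tested 603 and called 52, of which 31 rose and 21 fell, beside 359 up (1.41%) and 195 down (0.764%) among all 25515 genes. Over all 19908 genes, the 3 progeny libraries lay above the 3 sorted ones without overlap in 1962 (9.86%) and below them in 2441 (12.3%). Where such counts are given below for a list, these shares are the background. Summed levels of lists were compared with a two-sided exact permutation test, which cannot go below p = 0.1 with 3 libraries against 3, and whose smallest p over 47 library measures was 0.204 after adjustment.

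Genes of the actin cytoskeleton that depend on SRF stood higher in progeny. All 19 tested had a positive log2 fold change, with a median of 1.79 beside -0.33 for all genes, and 14 of the 19 did not overlap between the groups. The 18-library fit called 8 of 19 as higher and 0 as lower: Acta2, Cnn2, Tpm1, Tpm2, Cald1, Vcl, Flna and Actn1, where 1.41% of all genes were called as higher. Without sorted replicates 1 to 3 it called 7, 11 and 8 as higher. In the 6-library fit 11 were called as higher without sorted replicate 2, and 0 without sorted replicate 1 or 3, where all genes had 20 and 0 calls. The summed level of the list was 102088, 110385 and 87484 normalized counts in sorted cells and 371530, 263820 and 322211 in progeny (exact p = 0.1), with Tpm1 the most abundant member at 22.4% of the sum.

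Cald1, which encodes the actin-binding protein caldesmon, was at 12430, 3612 and 9912 normalized counts in sorted cells and at 74850, 50490 and 48200 in progeny. The groups lay apart, with a log2 fold change of 2.99 ± 0.37 (SE, edgeR adjusted p = 0.000200 in 18 libraries, 0.0562 in 6). Tpm1, a tropomyosin, was at 21160, 19060 and 9543 and then at 97430, 54880 and 79910 (log2 fold change 2.44 ± 0.34, adjusted p = 0.000525). Acta2, the actin of smooth muscle, was at 793, 0 and 1021 in sorted cells and at 14870, 6347 and 16690 in progeny. Its log2 fold change was 4.65 ± 1.07 (SE, adjusted p = 0.0208, and 0.0521 without sorted replicate 1), and sorted replicate 2 held none. Flna, which encodes the actin crosslinker filamin A, had a log2 fold change of 2.05 (adjusted p = 0.00135). Vcl, which encodes vinculin of focal adhesions, shares 25.5% of its exon bases with another gene and is undercounted. Tagln, with 67.9% shared, stood at 352, 0 and 41.8 and then at 97.9, 41.8 and 306, and was not called.

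Targets of YAP and of TGF-beta had a median of 1.38 over 16 genes, 9 of which lay higher in progeny without overlap and 0 lower. Thbs1, Smad7 and Skil were called as higher and 0 genes as lower, and without sorted replicates 1 to 3 there were 2, 5 and 4 higher. Thbs1, the matrix protein thrombospondin 1, was at 1891, 42.5 and 468 normalized counts in sorted cells and at 18780, 6913 and 10110 in progeny (log2 fold change 4.20 ± 0.92, SE, edgeR adjusted p = 0.0147). Every progeny library stood above every sorted one for Thbs1, although the sorted libraries differed widely. Smad7, an inhibitor of TGF-beta signalling, was at 2136, 622 and 902 and then at 5151, 6267 and 4211 (2.36 ± 0.39, adjusted p = 0.00221). Skil was not called without sorted replicate 1 (0.0697) or 3 (0.0843). Ccn1, a matricellular protein often used as a YAP target, was at 3210, 0 and 852 in sorted cells and at 5034, 5707 and 6366 in progeny and was not called (adjusted p = 0.217, and 0.0377 without sorted replicate 2). Ccn2 shares 44.9% of its exon bases and was not called either (0.244, and 8.32e-05 without sorted replicate 3). Ankrd1 overlapped between the groups and was not called (0.632).

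Immediate early genes, which serum induces within minutes in quiescent cells, had a median of 1.04 over 16 genes, with 7 higher and 1 lower without overlap. The median was 1.93, 1.06 and 1.70 without sorted replicates 1 to 3, beside -0.06, -0.30 and -0.16 for all genes. Jun, Junb and Dusp1 were called as higher, and without sorted replicates 1 to 3 the list had 2, 4 and 2 calls. Junb (adjusted p = 0.0468) was not called without sorted replicate 1 (0.0746) or 3 (0.0575). Jun was at 3962, 1113 and 1010 normalized counts in sorted cells and at 5541, 7367 and 7549 in progeny (log2 fold change 2.04 ± 0.46, SE, edgeR adjusted p = 0.0175), with 21.6% of its exon bases shared with another gene. The groups lay apart for Jun, and without sorted replicate 3 it was not called (0.0648). Dusp1, a phosphatase of MAP kinases, was at 313, 78.9 and 238 and then at 1179, 1280 and 1616 (2.96 ± 0.64, adjusted p = 0.0139). Fos itself was at 163, 340 and 262 in sorted cells and at 259, 296 and 277 in progeny, so that its groups overlapped (adjusted p = 0.903).

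Vim was the called member of the mesenchymal matrix list, whose median was 0.79 over 21 genes, and 1.28, 0.62 and 1.51 without sorted replicates 1 to 3, with 8 higher and 0 lower without overlap. Vim, the intermediate filament of mesenchymal and neural progenitor cells, was at 8678, 6867 and 6757 normalized counts in sorted cells and at 33510, 33890 and 37670 in progeny. Both groups were tight, and the log2 fold change was 2.46 ± 0.34 (SE, edgeR adjusted p = 0.000479). Collagens were not called with all libraries. Col1a1 was at 710, 6.07 and 2927 and then at 12490, 7657 and 6127 (adjusted p = 0.170). Without sorted replicate 3 it was called as higher (log2 fold change 4.945, from 3.064 with it, edgeR adjusted p = 0.04). Col3a1 overlapped, at 5971, 810 and 6963 against 3206, 6885 and 5743. With sorted replicate 1, 2 or 3 left out, the list had 1, 3 and 2 calls as higher and 0 as lower. The sum of the list was 45891, 16007 and 54028 in sorted cells and 105506, 90185 and 91300 in progeny, of which Vim made up 31.6%.

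Among mesenchymal transcription factors and receptors (median 0.78 over 16 genes, and 1.53, 0.53 and 1.19 without sorted replicates 1 to 3, 4 higher and 0 lower without overlap), Zeb2 and Cd44 were called as higher. Zeb2, a repressor of epithelial genes that also acts in neural cells, was at 2222, 3579 and 978 normalized counts and then at 4932, 10470 and 8114 (log2 fold change 2.00 ± 0.41, SE, edgeR adjusted p = 0.0109). Cd44, a hyaluronan receptor, was at 552, 590 and 926 and then at 4037, 1346 and 1668 (adjusted p = 0.0374, and 0.122 without sorted replicate 1). The groups did not overlap for either gene. Twist1 and Pdgfrb had 0 counts in sorted replicate 2 and were not called. The list summed to 16805, 11753 and 18404 in sorted cells and to 20743, 28819 and 25618 in progeny, with Zeb2 at 24.8%. Whether cells of a mesenchymal type had a part in the cytoskeletal genes was not tested.

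Cholesterol synthesis and uptake stood lower in progeny. All 22 tested genes had a negative log2 fold change, with a median of -1.63, and 15 of the 22 lay below the sorted libraries without overlap, beside 12.3% of all genes. Hmgcs1, Sqle, Lss, Cyp51, Insig1 and Srebf2 were called as lower and 0 of 23 as higher, and without sorted replicates 1 to 3 there were 7, 3 and 7 lower. In the 6-library fit 1, 1 and 0 of the list were called as lower without sorted replicates 1 to 3. All genes had 4, 674 and 0 calls as lower there, the 674 among 22964 tested. The size depended on sorted replicate 2, without which the median was -0.83 beside -0.30 for all genes. The summed level was 40972, 95269 and 51999 normalized counts in sorted cells, highest in that library, and 20222, 18094 and 20807 in progeny (exact p = 0.1).

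Cyp51, the sterol demethylase of the pathway, was at 1896, 4809 and 4926 normalized counts in sorted cells and at 809.9, 647 and 726 in progeny. The log2 fold change was -2.24 ± 0.41 (SE, edgeR adjusted p = 0.00469, and 0.00985 without sorted replicate 2), with the groups apart. Insig1, which holds the SREBP complex in the endoplasmic reticulum and is itself an SREBP target, was at 1760, 13370 and 10170 and then at 1210, 789.8 and 928 (-2.96 ± 0.54, adjusted p = 0.00421). Srebf2, which encodes SREBP2, was at 6835, 5451 and 3323 and then at 1436, 1977 and 1577 (-1.41 ± 0.33, adjusted p = 0.0208, and 0.0692 without sorted replicate 1). Without sorted replicate 2, Hmgcs1 (log2 fold change -0.88, from -1.90 with it, adjusted p = 0.184), Sqle (-1.22 from -2.32, 0.0938) and Lss (-1.91 from -2.92, 0.138) were not called. Hmgcs1 and Lss share 46.6% and 68.5% of their exon bases with other genes.

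Fatty acid synthesis and desaturation had a median of -0.76 over 12 tested genes, with 2 higher and 5 lower without overlap. Scd1 and Elovl6 were called as lower and Me1 as higher. Scd1, a desaturase, was at 2847, 15780 and 8356 normalized counts and then at 1112, 1403 and 1463 (log2 fold change -2.60 ± 0.46, SE, edgeR adjusted p = 0.00365). Elovl6, which elongates fatty acids, was at 6791, 4962 and 6798 and then at 1502, 1361 and 1747 (-1.78 ± 0.38, adjusted p = 0.0139). Both genes lay apart between the groups. Me1, the cytosolic malic enzyme, went the other way, from 2291, 5466 and 5441 to 16420, 9828 and 7043 normalized counts (adjusted p = 0.0252, and 0.0899 without sorted replicate 1), while Fasn and Acly were not called (0.554 and 0.432).

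Genes of cholesterol efflux had a median of -0.13 over 8, 0.05, -0.47 and 0.13 without sorted replicates 1 to 3 and -0.45 with library totals, with 1 higher and 1 lower without overlap. Apoe, the apolipoprotein, was called as lower, at 2267, 3379 and 6255 normalized counts against 361, 372 and 1240 (log2 fold change -2.37 ± 0.59, SE, edgeR adjusted p = 0.0338, and 0.120 without sorted replicate 3). Abca1, the cholesterol exporter, was at 2634, 1.52 and 1460 in sorted cells and at 3297, 8066 and 10490 in progeny and was not called (0.155, and 0.0266 without sorted replicate 2). Abca1 was nearly absent from the sparse library, and its remaining sorted libraries still lay below all progeny.

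**Figure D2:**
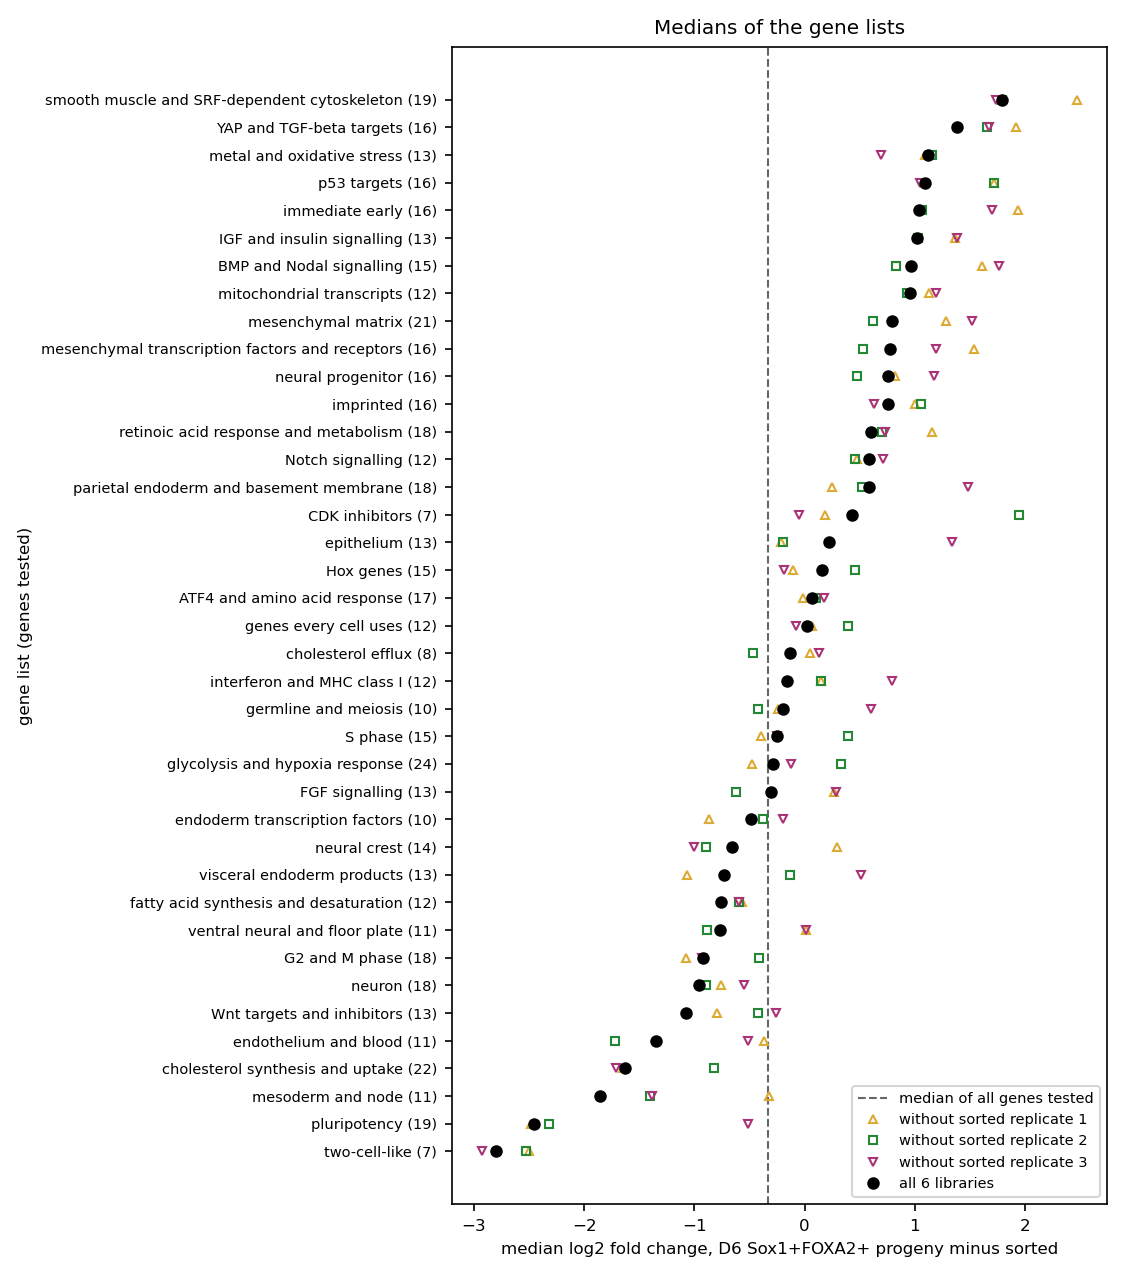
Median log2 fold change, progeny over sorted D6 Sox1+FOXA2+ cells, of the tested genes of each of 39 gene lists, with all 6 libraries and without sorted replicate 1, 2 or 3, and a dashed line at the median of all genes with 6 libraries, -0.33. The SRF-dependent cytoskeleton lies right of the line at each setting, and the cholesterol list lies left of it at each.

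Promoter letters are shown for 4 lists, as a description only. In RefSeq promoters of GRCm38.p6, which run from 250 bases before to 50 after a start, 16 of 24 cholesterol genes were matched. The sterol regulatory element TCACNCCAC, on either strand, occurred in the promoter of Hmgcs1, 1 of those 16, and in 408 of all 32851 promoters (1.24%). The CArG box, the site that SRF binds, occurred in those of Cnn2, Myl9, Srf and Vcl, 4 of 17 matched genes of 20, and in 535 of all promoters (1.63%). It also occurred in Egr2 and Zfp36 among 13 matched immediate early genes. The DR5 element of RA receptors occurred in 3 of all promoters (0.00913%) and in 0 of 13 matched genes of the RA list. Below, the motif is in capitals within windows on the plus strand, for Hmgcs1 at chr13:119690204-119690232, for Cnn2 at chr10:79988534-79988563 and for Vcl at chr14:20929161-20929190, each a gene that was called.
Hmgcs1: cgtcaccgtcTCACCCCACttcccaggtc
Cnn2: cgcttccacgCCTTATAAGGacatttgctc
Vcl: cccactatgcCCTTATAAGGagcgccccgc

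Pluripotency genes had the median of -2.45 over 19 tested, with 1 higher and 7 lower without overlap, and without sorted replicate 3 the median was -0.52. Dppa5a, Lin28a and Dnmt3b were called as lower and 0 as higher. Dnmt3b, a DNA methyltransferase of the epiblast, was at 3755, 13170 and 3894 normalized counts in sorted cells and at 1328, 1084 and 859 in progeny (log2 fold change -2.52 ± 0.49, SE, edgeR adjusted p = 0.00700). Lin28a, an RNA-binding protein that blocks let-7, was at 5317, 13550 and 5354 and then at 2643, 441 and 917 (adjusted p = 0.0145, and 0.0690 without sorted replicate 2). The groups lay apart for both, and Dppa5a was not called without sorted replicate 2 (0.0844) or 3 (0.0521). Pou5f1, with 31.2% of exon bases shared, was at 674, 1847 and 193 and then at 0, 24.7 and 14.2, and Nanog was at 249.7, 488 and 2118 and then at 24.1, 0 and 67.0. Neither was called (0.136 and 0.0952), though Nanog passed without sorted replicate 2 (0.0496). Klf4 was higher in progeny without a call, at 989, 319 and 2691 against 2743, 3858 and 3077 (0.217). Without sorted replicate 3 it was called as higher (log2 fold change 2.594, from 1.508 with it, edgeR adjusted p = 0.0258). With sorted replicate 1, 2 or 3 left out, the list had 0, 0 and 1 calls as higher and 3, 3 and 2 as lower. The list summed to 24869, 55424 and 50197 in sorted cells and to 20508, 21784 and 19772 in progeny, with Klf5 at 21.6%.

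Neural progenitor genes had a median of 0.76 over 16 tested, and 0.82, 0.48 and 1.18 without sorted replicates 1 to 3, with 5 higher and 2 lower without overlap. Sox9 and Nr2f2 were called as higher and 0 as lower. With sorted replicate 1, 2 or 3 left out, there were 3, 4 and 3 calls as higher and 1, 0 and 1 as lower. Sox9, a factor of neural stem cells and also of crest and cartilage, was at 46.1, 169.9 and 453 normalized counts and then at 4007, 3989 and 3293 (log2 fold change 4.25 ± 0.77, SE, edgeR adjusted p = 0.00432). Nr2f2, the nuclear receptor COUP-TFII, was at 919, 743 and 806 and then at 3333, 5616 and 6428 (2.88 ± 0.42, adjusted p = 0.000809). Both genes lay far apart between the groups. Pax6 was not called, at 376, 2924 and 90.5 against 72.3, 198 and 257. The list summed to 33344, 30672 and 38746 in sorted cells and to 51951, 77626 and 72547 in progeny, with Meis2 at 21.8%.

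Neuronal genes had a median of -0.96 over 18, and -0.55 without sorted replicate 3, with 0 higher and 4 lower without overlap. Rbfox3, the neuronal splicing factor NeuN, was called as lower, at 9878, 2163 and 3530 normalized counts against 376, 535 and 313 (log2 fold change -3.39 ± 0.74, SE, edgeR adjusted p = 0.0145, and 0.0691 without sorted replicate 1). Mapt, which encodes tau, was at 2951, 2522 and 1533 and then at 384, 714 and 351, without a call (0.104). Dcx, a marker of young neurons, had 0 counts in sorted replicate 2 and in progeny replicate 1. The list summed to 31581, 9753 and 18497 in sorted cells and to 7789, 7871 and 6286 in progeny, with Syt1 at 21.1%. Ventral neural and floor plate genes, Foxa2 among them, had a median of -0.77 over 11 tested, 2 higher and 3 lower without overlap and 0 called (edgeR, 18 libraries), and the median was 0.02, -0.88 and 0.01 without sorted replicates 1 to 3. Foxa2 itself had a log2 fold change of 1.53 (edgeR adjusted p = 0.436). Without sorted replicate 2, which held the most Foxa2 of the sorted libraries, the list had 2 calls as higher, Foxa2 among them at 4.52 (adjusted p = 0.00837, and 0.0926 without the other gates). Nkx6-1 had 0 counts in sorted cells and 136, 39.9 and 18.9 in progeny.

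Endoderm transcription factors had a median of -0.49 over 10, and -0.86, -0.37 and -0.20 without sorted replicates 1 to 3, with 0 higher and 4 lower without overlap. Gata4, Gata6, Sox17 and Sox7 overlapped between the groups and were not called (adjusted p from 0.627 to 0.859). Gata4 was at 1707, 6203 and 11780 in sorted cells and at 5419, 3416 and 3011 in progeny, lowest in sorted replicate 1, the library without Foxa2. Summed levels were 10255, 24876 and 26991 and then 14771, 11725 and 9855, with Gata4 at 32.0%.

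Products of visceral endoderm had a median of -0.73 over 13 tested, and -1.07, -0.13 and 0.51 without sorted replicates 1 to 3, with 1 higher and 2 lower without overlap. Dab2, an endocytic adaptor of that tissue, was called as lower. It was at 9255, 48660 and 25320 normalized counts in sorted cells and at 3748, 3306 and 4091 in progeny (log2 fold change -2.75 ± 0.43, SE, edgeR adjusted p = 0.00135 in 18 libraries, 0.0962 in 6). The sorted libraries lay above all progeny but differed among themselves. Ttr and Apoa1 were at or near 0 in several libraries of both groups, at 177, 3.03 and 5.57 against 0, 156 and 177 for Ttr. Their sum was 34091, 111006 and 106227 and then 78986, 51246 and 37011, with Lrp2 at 45.1%.

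Parietal endoderm and basement membrane genes had a median of 0.59 over 18, and 0.25, 0.52 and 1.48 without sorted replicates 1 to 3, with 4 higher and 2 lower without overlap. Krt19, a keratin, was called as higher, at 2316, 2790 and 1538 normalized counts against 5222, 6273 and 6984 (log2 fold change 1.69 ± 0.33, SE, edgeR adjusted p = 0.00754). Lama1, Lamb1, Lamc1 and Col4a1, which encode laminin and collagen IV chains, overlapped between the groups and were not called. Without sorted replicate 3, Col4a1 was called as higher (log2 fold change 2.232, from 0.533 with it, edgeR adjusted p = 0.0492), while the laminin genes were not. With sorted replicate 1, 2 or 3 left out, the list had 1, 1 and 4 calls as higher and 1, 0 and 0 as lower. Lama1 was at 23940, 49200 and 207400 in sorted cells and at 137900, 83860 and 47930 in progeny. The list summed to 150273, 288949 and 922422 and then to 700968, 485471 and 362572, with Lama1 at 18.9%, so that sorted replicate 3 was the highest of the 6 libraries and sorted replicate 1 the lowest. The part of endoderm cells in the results above was not tested.

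Genes of RA response and metabolism had a median of 0.61 over 18, 1.15 without sorted replicate 1 and 0.30 with library totals, with 6 higher and 3 lower without overlap. Nrip1, a corepressor of nuclear receptors, was called as higher, at 3475, 4034 and 3551 normalized counts against 11710, 13390 and 9386 (log2 fold change 1.85 ± 0.38, SE, edgeR adjusted p = 0.0107), and Crabp1 as lower. Both lay apart between groups. The RA-degrading enzymes Cyp26a1 and Cyp26b1 were not called (0.254 and 0.230), and Cyp26b1 was at 245, 146 and 443 and then at 2541, 4618 and 455. Hox genes had a median of 0.16 over 15 tested, -0.14 with library totals and -0.11, 0.46 and -0.18 without sorted replicates 1 to 3, with 1 higher and 0 lower without overlap and 0 called (edgeR, 18 libraries). Of 39 Hox genes, 12 lie inside another gene and have 0 counts.

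The same comparison was made in the other gates, each with 3 progeny and 3 sorted libraries at D6. In Sox1+FOXA2- cells 845 of 25515 genes were called (3.31%), of which 500 rose and 345 fell, and in Sox1-FOXA2+ cells 37 were called (0.145%), of which 30 rose and 7 fell. Of the 554 genes called in Sox1+FOXA2+ cells, 287 were also called in Sox1+FOXA2- cells, 51.8% of the 554 and 34% of the 845. In Sox1-FOXA2+ cells 21 were also called, 3.79% of the 554 and 56.8% of the 37. All 287 and all 21 had the same sign in both. The median of all genes was -0.53 for Sox1+FOXA2- cells, while for Sox1-FOXA2+ cells it was 0.03.

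The difference between gates was tested gene by gene. Against Sox1+FOXA2- cells, the change differed in 1 of 25515 genes (0.00392%), Dab2, whose log2 fold change was -2.75 in double-positive cells and 1.06 in that gate, which are -3.80 apart (edgeR adjusted p = 0.0274). At an unadjusted p under 0.05 there were 1287 genes, and DESeq2 called 316. Against Sox1-FOXA2+ cells edgeR called 0 (0%), with 2427 at an unadjusted p under 0.05 and 813 called by DESeq2. The numbers moved with single libraries: without sorted Sox1+FOXA2+ replicate 1 they were 23 and 1, without replicate 2 they were 5 and 1, and without replicate 3 they were 4 and 20. The adjusted p of Dab2 passed 0.05 with 5 of the 18 libraries left out: progeny Sox1+FOXA2+ replicate 1 (adjusted p = 0.16) or 2 (0.133), sorted Sox1+FOXA2- replicate 1 (0.0567) or 3 (0.143), and progeny Sox1+FOXA2- replicate 2 (0.0507). Its log2 difference was -3.85 to -3.63 in those 5 fits, close to the -3.80 of all libraries. A gene called in 1 gate and not in another is therefore not shown to differ between them, Dab2 excepted with all 18 libraries.

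Among the 4 genes called in 6 libraries, Fosl2 was called in all 3 gates, with log2 fold changes of 3.81 in double-positive, 4.31 in Sox1+FOXA2- cells and, in the Sox1-FOXA2+ gate, 2.13 (edgeR adjusted p = 0.0114 in the last). Ecm1 was called in Sox1+FOXA2- (7.87, adjusted p = 0.000254) and not in Sox1-FOXA2+ cells (1.02, 0.650). Spock1 was at -3.94 and -0.31 in those gates, and Msn at 2.57 and 1.12, each called in the first and not in the second. The SRF-dependent list had 16 genes called as higher in Sox1+FOXA2- (median 3.48) and 3 in Sox1-FOXA2+ cells (median 1.47), with 0 lower in either. The cholesterol list had 0 called in Sox1+FOXA2- (median -0.72) and 3 called as lower in Sox1-FOXA2+ cells (median -1.51).

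**Figure D3:**
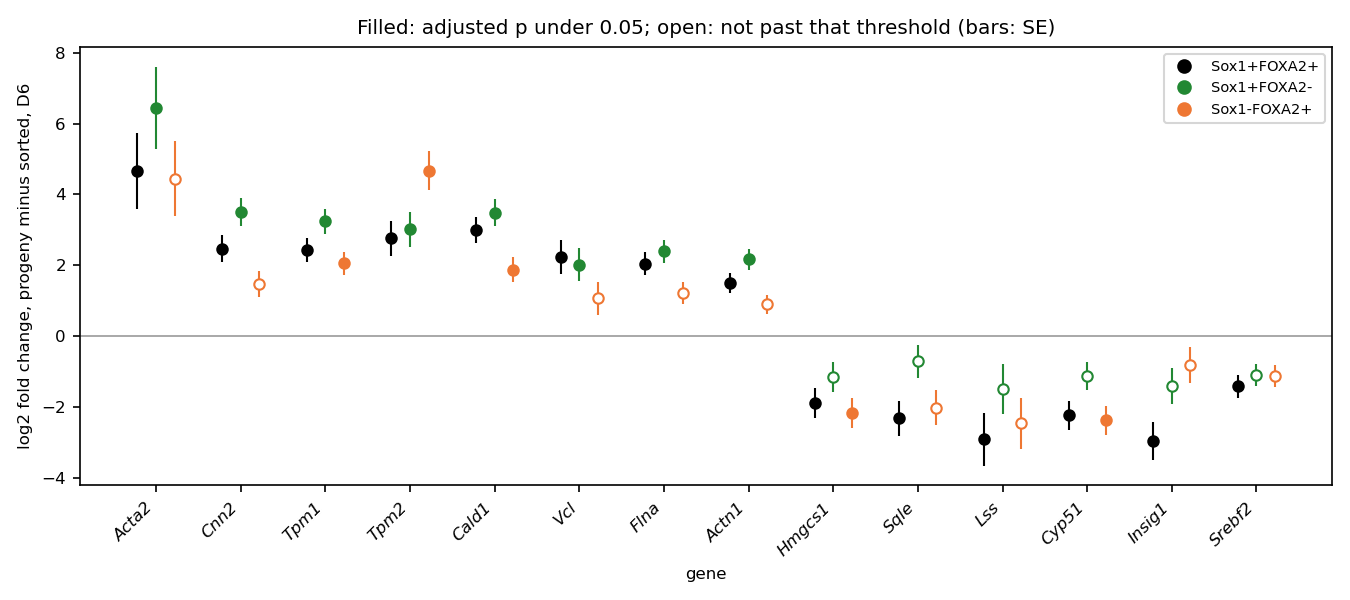
Log2 fold change, progeny over sorted at D6, of 8 SRF-dependent and 6 cholesterol genes in the double-positive gate and the 2 single-positive gates, with bars of 1 SE and filled points for an edgeR adjusted p under 0.05, from the 18-library fit. The 8 cytoskeletal genes lie above 0 and the 6 cholesterol genes below 0 in each gate.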

How the data were processed

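Bulk RNA-seq libraries (SMART-Seq Stranded kit) were used. The authors aligned reads with STAR, sorted them with SAMtools and made counts per gene by featureCounts (GENCODE M21, GRCm38), and the deposited values are raw counts. Left out were 92 lines without a gene, all at 0 counts. Library totals over the series had a median of 36694379 counts (10170632 to 81845651). Normalized counts were counts divided by DESeq2 1.42.0 size factors over all 57 libraries.

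Genes were tested with edgeR 4.0.16 in R 4.3.3 (limma 3.58.1, quasi-likelihood test, TMM, prior count 0.125, and filterByExpr at min.count 10 and min.total.count 15). Tests were two-sided, and genes with a Benjamini-Hochberg adjusted p under 0.05 were called. SE is the size of the log2 fold change over the square root of F. The 6 libraries were fitted alone, and 18 libraries together for the gates. The 18-library fit was listed as an alternative, and describing it gene by gene was chosen after the 6-library result was seen.

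Genes named were the 12 most increased and the 12 most decreased called genes without overlap, with a mean of at least 100 normalized counts in the higher group and a gene symbol that is no clone name. Called genes and first members of the lists, the reporter genes and genes that differ between gates were added. Members and lists were chosen with earlier results of these data known, and the lists are those named in the report and in the other observations. The fits were tested on simulated data. Floors are 3 counts over a group of 3 libraries. Of all counts above 0, 80.6% were even (73.6% to 88.1% per library), so that single counts are not independent. Floors and intervals that rest on single counts are therefore too narrow, and at-least folds may be too high. The SE given above rest on the spread between libraries. Alternatives were edgeR's RLE factors, library totals, no filter, DESeq2's Wald test and a replicate block. Others left out each library, required a minimum mean or used all 57 libraries. Figures and annotation used matplotlib 3.10.9, numpy 2.4.6 and pandas 2.3.3 under Python 3.11.15.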

Additional observations from a re-analysis of the deposited data

Results flagged for a closer look

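Dab2 stood out because its progeny-to-sorted change differed between gates. The log2 fold change was -2.75 in double-positive cells against 1.06 in Sox1+FOXA2- cells, a difference of -3.80 (edgeR adjusted p = 0.0274), and the second of these was not called (adjusted p = 0.185). With each of 18 libraries left out in turn the difference ran from -4.24 to -2.97, and its adjusted p was above 0.05 in 5 of the 18 fits, the highest being 0.16 without progeny Sox1+FOXA2+ replicate 1. In those 5 the difference was -3.85 to -3.63. The gene (chr15:6299788-6440712, GRCm38) was at 9255, 48660 and 25320 normalized counts in sorted Sox1+FOXA2+ cells and at 3748, 3306 and 4091 in their progeny. In Sox1-FOXA2+ cells the log2 fold change was -1.06 (adjusted p = 0.415), and the difference from Sox1+FOXA2+ cells, -1.68, was not called (adjusted p = 0.475).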

How the results depend on the processing

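The 4 calls of the 6-library comparison became 863 with no filter on low counts (397 up, 466 down), 1315 with DESeq2's Wald test (466 up, 849 down), 116 with a replicate block, 15 with a mean of at least 100 normalized counts, 554 in 18 libraries and 626 in 57. Leaving out each library gave 0 to 1691, with 20 without sorted replicate 1, 1691 without sorted replicate 2, 0 without sorted replicate 3 or progeny replicate 1, and 1 without progeny replicate 2 or 3. RLE factors in edgeR gave 5 and library totals 4. The block has little ground, since deviations of like-numbered replicates correlated at -0.003, -0.281 and -0.132. The 554 calls became 1119 with no filter and 2310 with DESeq2, and 253 (without progeny replicate 1) to 1171 (without sorted replicate 2), with 274 and 265 without progeny replicates 2 and 3. These alternatives for the 18-library count were chosen after seeing the data. The difference from Sox1+FOXA2- cells, 1 call, became 69 with no filter, 316 with DESeq2 and 0 to 23 without single libraries: 23, 5 and 4 without sorted Sox1+FOXA2+ replicates 1, 2 and 3, 2 without progeny Sox1+FOXA2- replicate 3, and 0 without progeny Sox1+FOXA2+ replicate 1 or 2, progeny Sox1+FOXA2- replicate 2 or sorted Sox1+FOXA2- replicate 3. The difference from Sox1-FOXA2+ cells, 0 calls by edgeR (2427 at an unadjusted p under 0.05), became 74 with no filter, 813 with DESeq2 and 0 to 20 without single libraries: 20 without sorted Sox1+FOXA2+ replicate 3, 6 without sorted Sox1-FOXA2+ replicate 1, and 1 without sorted Sox1+FOXA2+ replicate 1 or 2. The cause was not tested. In the 6-library fit, where 4 genes had a call to lose, of 3021 values of 217 named genes 2527 stayed alike in direction and side of the threshold, 388 passed it newly and 15 lost their call. Another 91, not called in either fit, changed sign, and 0 called values did. The 15 belong to Ecm1, Fosl2, Msn and Spock1, all with a single library left out except Msn with library totals. Of the 77 named genes called in 18 libraries, 39 were not called with at least 1 of the 6 double-positive libraries left out, all with the same sign.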

Other observations

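Targets of p53 stood higher in progeny, with a median log2 fold change of 1.09 over 16 genes (-0.33 over all genes), and 1.71, 1.72 and 1.04 without sorted replicates 1 to 3, 15 of them positive, and 9 higher and 0 lower without overlap. Cdkn1a, Phlda3 and Plk2 were called as higher in 18 libraries, and 4, 10 and 2 genes without sorted replicates 1 to 3. In the 6-library fit 1, 11 and 0 of 16 were called without sorted replicates 1 to 3, where all genes had 20, 1691 and 0 calls. Phlda3 was not called in 18 libraries without sorted replicate 3 (0.0620) or progeny replicate 2 (0.0608) or 3 (0.0916), nor Cdkn1a without progeny replicate 3 (0.0512). Cdkn1a, the CDK inhibitor p21, was at 1827, 1280 and 841 normalized counts in sorted cells and at 4388, 4053 and 5361 in progeny (log2 fold change 2.05 ± 0.44, SE, edgeR adjusted p = 0.0131). The groups lay apart for this gene. Plk2, a kinase of the polo family, was at 5063, 1817 and 1161 and then at 10700, 17400 and 19890 (2.86 ± 0.49, adjusted p = 0.00297). CDK inhibitors as a list had a median of 0.43 over 7, and 0.19, 1.95 and -0.05 without sorted replicates 1 to 3, 2 higher and 0 lower without overlap, with Cdkn1a the called member.

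Genes of G2 and M phase all had negative values, with a median of -0.93 over 18 and 12 lower without overlap. Top2a and Cenpf were called as lower, at -1.32 and -1.37 (edgeR adjusted p = 0.0384 and 0.0366, and -0.62 and -0.86 with 0.271 and 0.169 without sorted replicate 2). Without that library the median was -0.41. The summed level was 111922, 236730 and 138047 normalized counts in sorted cells, highest in sorted replicate 2, and 57091, 67818 and 82315 in progeny. S phase genes had a median of -0.25 over 15, 0.39 without sorted replicate 2 and -0.53 with library totals, with 0 higher and 2 lower without overlap and 0 called (edgeR, 18 libraries).

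Imprinted genes had a median of 0.76 over 16, and 0.48 with library totals, with 6 higher and 2 lower without overlap. H19, Peg3 and Peg10 were called as higher. Peg10, a retrotransposon-derived gene of the placenta, was at 61750, 65730 and 18160 normalized counts in sorted cells and at 223900, 212500 and 234100 in progeny (log2 fold change 2.42 ± 0.41, SE, edgeR adjusted p = 0.00254). Peg10 made up 41.9% of the sum of the list, which was 199717, 196935 and 72927 in sorted cells and 538335, 467055 and 471436 in progeny. H19 lost its call without sorted replicate 3 (0.0707).

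In the metal and oxidative stress list (median 1.12 over 13, and 0.69 without sorted replicate 3, 5 higher and 1 lower without overlap) Hmox1 rose and Mt1 fell. Hmox1, heme oxygenase, was at 232, 121 and 403 normalized counts and then at 1722, 1794 and 2021 (log2 fold change 3.10 ± 0.53, SE, edgeR adjusted p = 0.00314). Mt1, a metallothionein, was at 662, 1799 and 2822 and then at 36.1, 192 and 164 (-3.54 ± 0.83, adjusted p = 0.0231, and 0.0610 without sorted replicate 3). Among glycolysis and hypoxia genes (median -0.29 over 24, and -0.48, 0.33 and -0.13 without sorted replicates 1 to 3, 2 higher and 6 lower without overlap), Hk2, a hexokinase, rose with 1.86 (adjusted p = 0.00420). Slc2a3, a glucose transporter, fell with -2.04 (0.0360, and 0.119 without sorted replicate 3).

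Neural crest genes had a median of -0.66 over 14, the same with genes at their bound and 0.29 without sorted replicate 1 but -0.89 or lower without replicate 2 or 3, with 4 higher and 2 lower without overlap. Ets1, a factor of crest and endothelium, was called as higher, at 2206, 2178 and 773 normalized counts against 11090, 10770 and 8470 (log2 fold change 2.77 ± 0.38, SE, edgeR adjusted p = 0.000479). Ets1 made up 51.3% of the sum of its list. In BMP and Nodal signalling (median 0.97 over 15, and 1.61, 0.83 and 1.76 without sorted replicates 1 to 3, 4 higher and 1 lower without overlap) Lefty2 was the called gene. Without sorted replicate 1 it was at -8.79 with an adjusted p of 0.0553, so that the list had 0 calls where all genes had 411. In IGF and insulin signalling (median 1.02 over 13) 8 were higher and 1 lower without overlap and 0 were called, or 2, 1 and 0 without sorted replicates 1 to 3.

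The other lists had 0 calls by edgeR in 18 libraries, where all genes had 554 calls, and each had at most 1 with a sorted replicate left out. Their medians were 0.59 for Notch signalling, -0.31 for FGF signalling, -1.08 for Wnt targets and inhibitors, -0.16 for interferon and MHC class I, -0.19 for germline and meiosis and 0.96 for mitochondrial transcripts. Those of marker lists were -1.86 for mesoderm and node, -1.35 for endothelium and blood and 0.23 for epithelium, the last -0.09 with library totals. ATF4 and amino acid response was at 0.07, and at -0.26 with library totals. Genes every cell uses were at 0.02, and at -0.25 with library totals, a scaling that shifted the median of all genes from -0.33 to -0.63. Several of these medians moved with single sorted libraries. With replicate 1, 2 or 3 left out, FGF signalling was at 0.27, -0.63 and 0.28, Wnt targets at -0.80, -0.42 and -0.26, and interferon genes at 0.15, 0.15 and 0.79. In the same order, germline was at -0.24, -0.43 and 0.60, mesoderm and node at -0.33, -1.40 and -1.39, and endothelium and blood at -0.37, -1.72 and -0.51. Epithelium was at -0.22, -0.19 and 1.33, ATF4 at -0.02, 0.11 and 0.17, and genes every cell uses at 0.07, 0.39 and -0.08.

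Genes of the two-cell-like state had a median of -2.80 over 7, with 0 higher and 3 lower without overlap and 0 called by edgeR. Their sum was 4370, 3295 and 3243 normalized counts in sorted cells and 1496, 168 and 197 in progeny. Zscan4 genes are near-identical copies, so that their single values are uncertain. Mitochondrial transcripts took 10.8%, 6.52% and 10.5% of counts in sorted cells and 14.9%, 14.8% and 11.9% in progeny (exact p = 0.1, 0.204 after adjustment over 47 measures). The part of this share in the results was not tested.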
